A study of Homo sapiens with 4 samples.

Results

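The proteasome is built from subunits whose genes carry the symbols PSMA to PSMG. All entries of the deposited count table whose symbol is PSM, a letter from A to G and a number were taken, which gave 48 of 60662 entries. Of these, 46 had enough counts to be tested, and PSMA8 and PSMB11 were listed at 0 in all 4 libraries. RNA came from U937, an established human myeloid line derived from a histiocytic lymphoma. The untreated group held 2 libraries of cells kept without PMA for 72 h, and the PMA group held 2 libraries of cells kept in 10 nM PMA for 72 h. PMA is a phorbol ester and protein kinase C activator, used here to turn the cells into macrophage-like cells. Each of 2 lots of cells gave 1 untreated and 1 PMA library, and no genetic change is named for any group. In bulk RNA such as this, fewer cells of a type and less RNA per cell cannot be told apart.

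The proteasome degrades proteins tagged with ubiquitin. Its barrel-shaped core holds outer alpha rings and inner beta rings, and only some beta subunits (PSMB5, PSMB6 and PSMB7) cut proteins. After interferon, new cores can take up PSMB8, PSMB9 and PSMB10 in their place, which gives the immunoproteasome, known for making peptides that are shown on MHC class I molecules. PSME1 and PSME2 form an activator that caps the core, while the regulatory particle of PSMC ATPases and PSMD subunits binds and unfolds tagged proteins. PSMG1 to PSMG4 are chaperones that help assemble the core and are not part of the finished particle.

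The libraries held 35739833 to 54915928 counts. Levels are CPM, which are counts after TMM scaling for library size, and are relative to the other genes of a library. Differences are log2 fold changes of PMA against untreated with their standard error (SE), and p-values come from the quasi-likelihood test of edgeR, adjusted by Benjamini-Hochberg over all 16451 genes tested, called at 0.05. Separate culture of the lots is not stated in the labels, and the p-values therefore reflect only how far these libraries differ, which could be a technical spread. Of the 12 listed markers of the monocytic lineage, all were tested, among them CD33, SPI1 and ITGB2, and 5 rose. The T cell markers CD3D, CD3E and CD2, the B cell marker MS4A1 and all 4 erythroid markers were listed at 0 in every library.

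The promoter windows below are shown because the results turn on these genes: PSMG1 was the member that passed the test, PSMD5 had the highest fold change, and PSMB8, PSMB9 and PSMB10 are the inducible catalytic subunits. Each is the 250 bases before a RefSeq start in GRCh38.p14, written 5′ to 3′ on the gene's strand, with motif matches in capitals. The windows are chr21:39183452-39183701 on the minus strand for PSMG1, chr9:120842923-120843172 on the minus strand for PSMD5, chr16:67936851-67937100 on the minus strand for PSMB10, chr6:32844048-32844297 on the minus strand for PSMB8 (1 of its windows) and chr6:32853942-32854191 on the plus strand for PSMB9.
PSMG1: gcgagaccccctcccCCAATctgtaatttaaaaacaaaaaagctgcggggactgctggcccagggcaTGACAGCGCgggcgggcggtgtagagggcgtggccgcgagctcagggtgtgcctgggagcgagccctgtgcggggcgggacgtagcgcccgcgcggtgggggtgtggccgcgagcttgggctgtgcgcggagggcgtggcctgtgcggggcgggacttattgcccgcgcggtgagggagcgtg
PSMD5: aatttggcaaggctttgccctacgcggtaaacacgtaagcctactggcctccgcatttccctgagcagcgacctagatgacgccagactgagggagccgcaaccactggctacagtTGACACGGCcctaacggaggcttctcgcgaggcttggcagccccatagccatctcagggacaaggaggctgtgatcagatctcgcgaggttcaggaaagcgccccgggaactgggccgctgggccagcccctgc
PSMB10: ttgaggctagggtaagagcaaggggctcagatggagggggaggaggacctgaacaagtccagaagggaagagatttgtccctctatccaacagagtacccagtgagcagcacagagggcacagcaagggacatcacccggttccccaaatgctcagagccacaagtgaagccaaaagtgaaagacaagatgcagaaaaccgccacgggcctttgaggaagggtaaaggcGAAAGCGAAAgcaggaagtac
PSMB8: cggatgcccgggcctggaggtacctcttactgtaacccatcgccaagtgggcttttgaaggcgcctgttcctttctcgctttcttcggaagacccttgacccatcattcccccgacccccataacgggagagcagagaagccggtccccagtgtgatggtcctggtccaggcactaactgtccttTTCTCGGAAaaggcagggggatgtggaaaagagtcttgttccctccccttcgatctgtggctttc
PSMB9: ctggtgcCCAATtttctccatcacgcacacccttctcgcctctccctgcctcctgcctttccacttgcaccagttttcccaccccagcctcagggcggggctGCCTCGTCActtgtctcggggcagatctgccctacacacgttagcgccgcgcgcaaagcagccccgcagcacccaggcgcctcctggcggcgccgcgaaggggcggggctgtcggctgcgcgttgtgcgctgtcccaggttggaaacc

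In these windows the capitals mark a CCAAT box and an antioxidant response element in PSMG1 and in PSMB9, an antioxidant response element in PSMD5, an interferon-stimulated response element in PSMB10 and a gamma-activated site in PSMB8. The other PSMB8 window, chr6:32844680-32844929, held no match to any motif searched. The letters searched, on both strands, were CCAAT, TGACNNNGC for the antioxidant response element, GAAA, 2 bases of any kind and GAAA for the interferon-stimulated response element, TTCNNNGAA for the gamma-activated site and TGANTCA for AP-1, and matches of AP-1 and the antioxidant response element can overlap. RefSeq windows were found for 42 members, 51 windows in all. The antioxidant response element letters were in 25.5% of member windows and 10.9% of all 35116 windows. The interferon-stimulated letters were in 9.80% and 3.02%, and the gamma-activated letters in 13.7% and 6.57%. The CCAAT letters were in 37.3% and 32.01%, and the AP-1 letters in 5.88% and 6.57%. A match is a description of letters, and binding was not measured.

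Few proteasome genes passed the test of PMA against untreated libraries. With 2 libraries per group, a gene that did not pass can still have changed. Of the 46 members tested, 0 rose and 1 fell, the core assembly chaperone PSMG1. Over all genes tested, 6.30% were called in either direction and 2.02% were called lower, and 1 of 46 is near the background for lower genes. At an unadjusted edgeR p under 0.05 there were 3 members, PSMG1, PSMG2 and PSMD5, against 4445 of the 16451 genes tested. DESeq2 called 3 members, PSMG1 and PSMG2 lower and PSMD5 higher. Over all genes it called 2136 higher and 1698 lower. The authors' deposited table called 0 members and 1347 entries in all, and its q-value for PSMG1 was 0.0611.

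The median log2 fold change of the 46 members was −0.19, against −0.00 over all genes tested. The fold change was above 0 in 12 members and below 0 in 34, and exceeded 1 in size in 5, against 46.5% of all genes. The untreated and PMA libraries did not overlap for 10 members, 2 higher and 8 lower with PMA. Over all genes tested, 60.4% did not overlap. The members' summed share of counts was 0.512% and 0.662% in untreated lots 1 and 2, and 0.429% and 0.414% under PMA. With upper-quartile factors the median of all genes moved to −0.17, and small fold changes below are relative to such shifts.

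**Figure D1:**
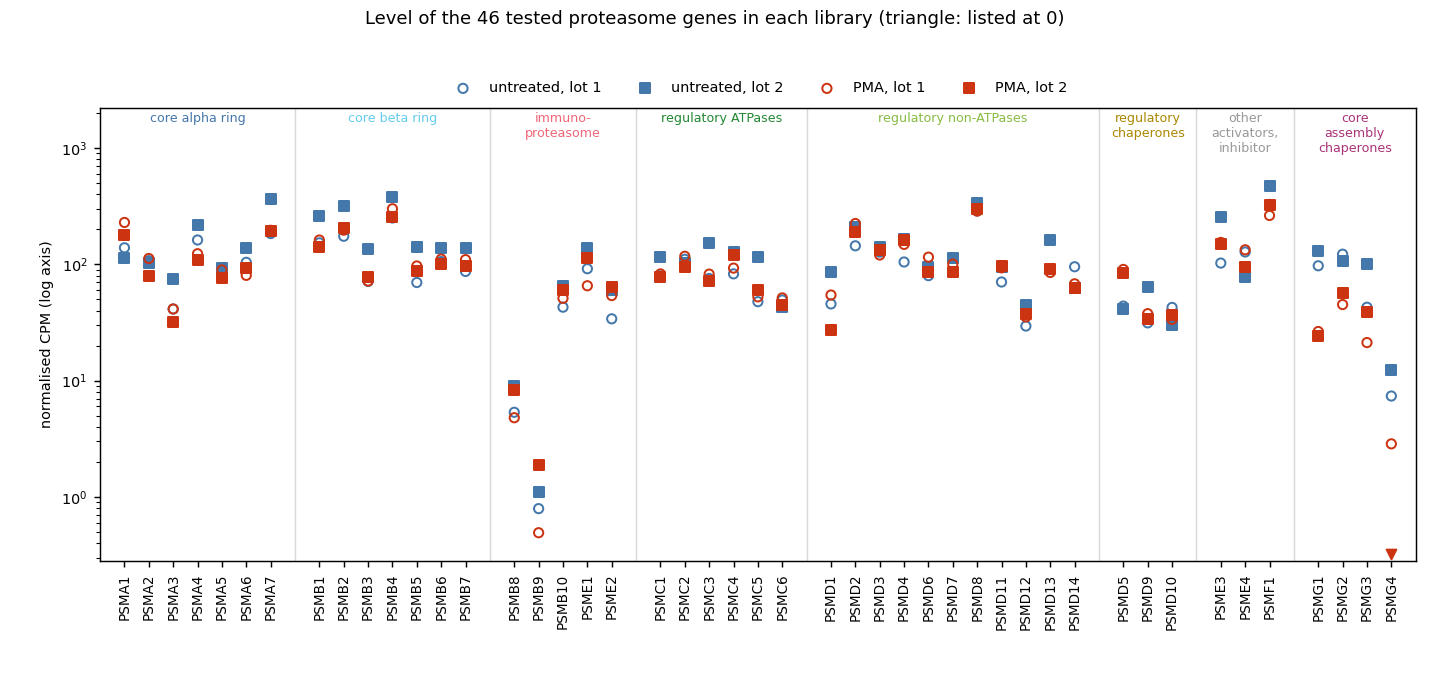
Level of each tested proteasome gene in each library, as normalised CPM on a log axis, grouped by role. Open symbols are lot 1, filled symbols lot 2, blue untreated and red PMA, and the triangle marks PSMG4 listed at 0. The PMA libraries lie below both untreated libraries for PSMG1, PSMG2, PSMG3, PSMG4, PSMA3, PSMA4, PSMA6 and PSMF1, by very little for PSMA3 and PSMF1, and above them for PSMD5 and PSMA1.

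The core assembly chaperones were lower with PMA in both lots, and 1 of the 4 passed the test. PSMG1, which pairs with PSMG2 to build the alpha ring, was at 97.03 and 129.7 CPM in untreated lots 1 and 2 and at 26.4 and 24.1 CPM with PMA. Both PMA libraries were far below both untreated ones. PSMG1 fell by 2.17 on the log2 scale (SE 0.35, edgeR adjusted p = 0.0378). With the lot as a replicate block the adjusted p was 0.0529, and it was 0.195 when PMA replicate 1 was left out and 0.267 when PMA replicate 2 was, so the call rests on both PMA libraries. With DESeq2 it was 1.37e-06, the lowest of the alternatives.

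PSMG2 was at 122.0 and 105.8 CPM untreated, and at 45.0 and 56.6 CPM with PMA. The groups did not overlap, and its log2 fold change of −1.16 (SE 0.33) did not pass (edgeR adjusted p = 0.0962, DESeq2 0.00845). PSMG3, which pairs with PSMG4, was at 42.7 and 101.3 CPM and then at 21.2 and 38.5 CPM. These groups were separated by a small gap (log2 fold change −1.27, SE 0.58, edgeR adjusted p = 0.245). Its antisense gene PSMG3-AS1 had 198 and 143 counts without PMA and 641 and 510 with it. No source used here says whether counting used strand, so reads of the pair may not be told apart.

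PSMG4 was the lowest of the 4, at 7.36 and 12.3 CPM untreated, 2.85 CPM in the PMA library of lot 1 and listed at 0 in that of lot 2. A listed 0 can be a failed estimate, and PSMG4 did not pass (edgeR adjusted p = 0.441, and 0.0140 without PMA replicate 1). Set against the summed counts of the constitutive core in the same library, the 4 chaperones came to 15.6% and 13.4% without PMA and to 4.98% and 6.92% with PMA. PSMG1 alone came to 5.62% and 4.97%, and then to 1.38% and 1.40%. These ratios do not depend on scaling between libraries. They were chosen after the values were seen and carry no test.

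**Figure D2:**
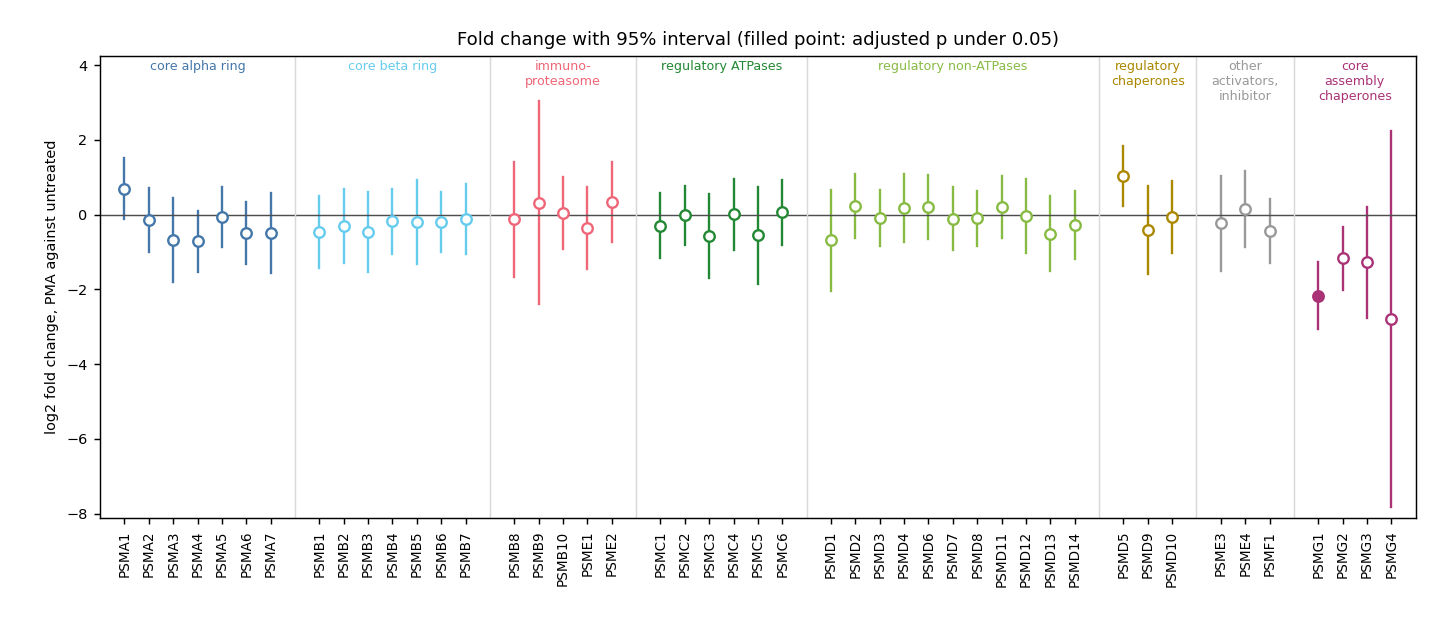
Log2 fold change of PMA against untreated for each tested member, with its 95% confidence interval, by class, and a filled point marks an adjusted p under 0.05. The intervals of PSMG1 and PSMG2 lie wholly below 0 and that of PSMD5 wholly above 0, and PSMG1 alone passed after adjustment. All intervals of the core, immunoproteasome and regulatory particle subunits span 0.

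The constitutive core, 15 genes of which 14 were tested, had 0 calls and a median log2 fold change of −0.25. The median was 0.09 in lot 1 and −0.61 in lot 2, and 10 of the 14 genes had opposite directions in the 2 lots. The untreated library of lot 2 was the highest of the 4 for 12 of the 14 genes. Without that library the median was 0.05.

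Among the alpha ring genes the median was −0.49 and 0 were called. PSMA4 had the smallest p, at 161.7 and 216.1 CPM untreated, and 123.2 and 108.4 CPM with PMA. Both lots were lower, and it did not pass (−0.71, SE 0.32, edgeR adjusted p = 0.241). PSMA1 lay the other way, at 138.6 and 114.0 CPM and then 228.8 and 179.5 CPM, with no overlap (0.69, SE 0.32, edgeR adjusted p = 0.246). PSMA3 was at 41.2 and 74.7 CPM and then 41.2 and 31.7 CPM, so its lot 1 libraries were level and only lot 2 differed.

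The 7 constitutive beta ring genes had a median of −0.20, and in all 7 the lots differed in direction. PSMB5, the chymotrypsin-like subunit, was at 69.7 and 141.9 CPM untreated, and at 96.6 and 87.7 CPM with PMA (−0.20, SE 0.44, edgeR adjusted p = 0.820). PSMB6, the caspase-like subunit, was at 105.4 and 137.0 CPM and then 110.7 and 100.7 CPM. PSMB7, the trypsin-like subunit, was at 86.7 and 137.8 CPM and then 109.6 and 97.3 CPM. In each the untreated library of lot 2 was highest and that of lot 1 lowest or near it. The structural subunits PSMB1, PSMB2 and PSMB3, with the smallest p of the class, were also highest in the untreated library of lot 2. PSMB1 was at 152.8 and 260.5 CPM and then 161.5 and 140.7 CPM. PSMB3 was at 71.2 and 134.9 CPM and then 71.7 and 77.5 CPM, and PSMB2 at 174.2 and 316.1 CPM and then 196.3 and 203.5 CPM.

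**Figure D3:**
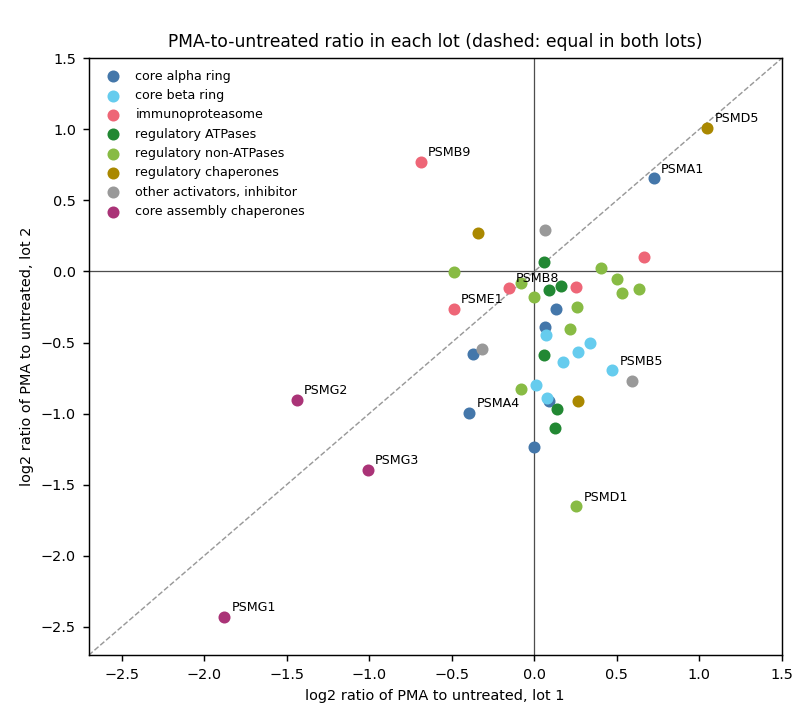
Log2 fold change of PMA against untreated in lot 1 (horizontal) and lot 2 (vertical), 1 point per member with counts in all libraries, coloured by class. The PSMG points lie low in both lots and PSMD5 high in both, while most core genes lie near 0 in lot 1 and below 0 in lot 2.

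Many members differed in direction between the lots. Of 45 members with counts in all 4 libraries, 26 had opposite directions in the 2 lots, against 25.3% of 13927 genes. The untreated library of lot 2 was above that of lot 1 for 37 of 46 members, against 44.4% of all genes, and was the highest of the 4 for 32, against 27.9%. Across the 45 members, which share libraries and scaling, the fold changes of the lots correlated at r = 0.47, against 0.68 over all genes. What set the untreated library of lot 2 apart was not tested.

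The immunoproteasome genes had 0 calls among 5, with a median log2 fold change of 0.05, −0.16 in lot 1 and −0.11 in lot 2. PSMB8 was at 5.33 and 8.97 CPM untreated, and at 4.79 and 8.28 CPM with PMA. The lots differed more than the groups, and each PMA library was slightly below its own lot's control (−0.13, SE 0.60, edgeR adjusted p = 0.917). Its 95% confidence interval ran from −1.66 to 1.40, which includes a change of 2-fold either way. PSMB8 overlaps the antisense gene PSMB8-AS1, whose counts came to between 33.5% and 58.7% of its own.

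PSMB9 was low, at 0.791 and 1.09 CPM untreated, and at 0.491 and 1.86 CPM with PMA. Its counts were 50 and 47, and then 16 and 86. It was lower in lot 1 and higher in lot 2 (0.33, SE 1.06, edgeR adjusted p = 0.882). PSMB9 overlaps PSMB8-AS1 on the same strand and PSMB8 on the opposite strand, so reads may be shared. PSMB8-AS1 had 113 and 206 counts without PMA and 68 and 225 with it. PSMB10 was the most abundant inducible catalytic subunit, at 42.7 and 64.6 CPM and then 50.9 and 59.9 CPM, with full overlap (0.05, SE 0.38, edgeR adjusted p = 0.953). Of the activator pair, PSME1 was at 91.5 and 137.0 CPM and then 65.3 and 114.1 CPM, lower in each lot (−0.35, SE 0.43, edgeR adjusted p = 0.666). PSME2 was at 33.9 and 59.7 CPM and then 53.8 and 64.1 CPM, higher in each lot (0.33, SE 0.42, edgeR adjusted p = 0.673). The directions of the pair differed, and neither passed the test.

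The balance of inducible and constitutive catalytic subunits was compared within each library as the log2 ratio of counts. For PSMB8 to PSMB5 it was −3.71 and −3.98 without PMA and −4.33 and −3.40 with PMA. For PSMB9 to PSMB6 it was −7.04 and −6.96, and then −7.77 and −5.75. For PSMB10 to PSMB7 it was −1.02 and −1.09, and then −1.10 and −0.70. In all 3 pairs the PMA library of lot 1 was the lowest of the 4 and that of lot 2 the highest. The differences of the means were −0.02, 0.24 and 0.15 in that order. Each had p = 1 in a 2-sided exact permutation test over the 4 libraries, also when adjusted over the 3 ratios, and 2 libraries against 2 cannot give a p under 1 in 3.

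Per transcript length, PSMB8 made up 8.10% and 6.78% of PSMB8 and PSMB5 together without PMA and 5.40% and 9.81% with PMA. PSMB9 made up 0.811% and 0.859% of its pair, and then 0.481% and 1.97%. PSMB10 made up 28.4% and 27.4%, and then 27.2% and 33.1%. Length was the middle one of a gene's principal transcripts in GENCODE release 29, a definition adopted after the values under a first one, the longest coding transcript, had been seen. Under the first definition the PSMB8 share was 6.83% and 5.71% without PMA and 4.53% and 8.30% with PMA.

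**Figure D4:**
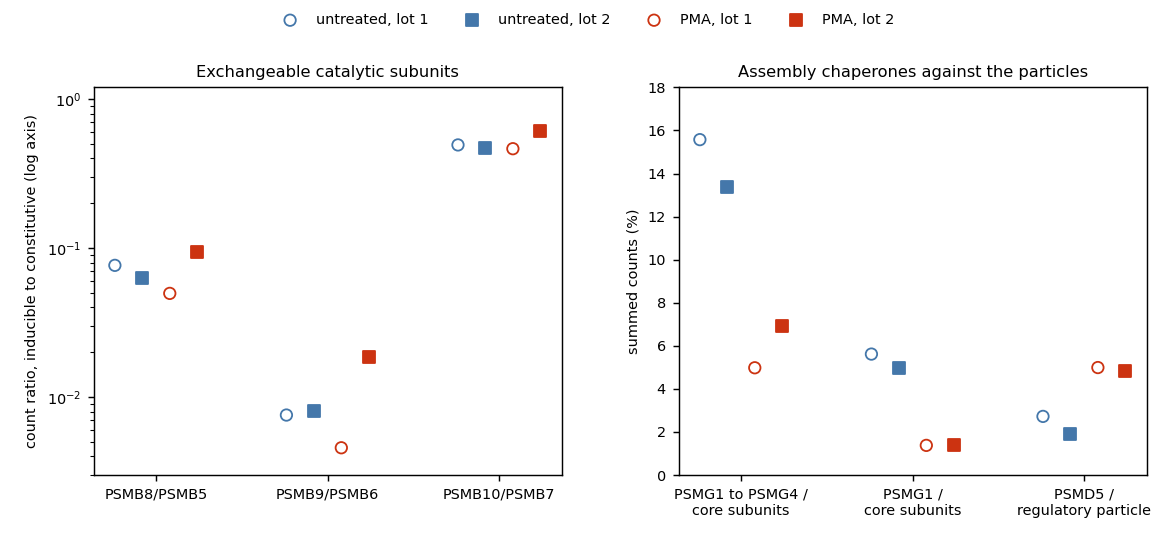
Ratio of the counts of each inducible catalytic subunit to its constitutive counterpart in each library (left panel, log axis), and counts of assembly chaperones as a percent of the subunits they are set against (right panel). On the left the PMA libraries of lots 1 and 2 lie on either side of the untreated libraries for all 3 pairs, and on the right the PMA libraries lie below the untreated ones for PSMG1 to PSMG4 and above them for PSMD5.

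Genes around the immunoproteasome were taken from lists. Among the regulators of proteasome genes, IRF8 fell. IRF8, a myeloid interferon regulatory factor, was at 169.8 and 127.4 CPM untreated, and at 24.1 and 12.5 CPM with PMA (−3.02, SE 0.47, edgeR adjusted p = 0.0357). Its call was lost when either PMA library was left out (edgeR adjusted p = 0.0509 and 0.153). IRF1 (0.68, edgeR adjusted p = 0.464) and NLRC5 (0.17, edgeR adjusted p = 0.832), an activator of MHC class I genes, did not pass. NFE2L1, which drives constitutive proteasome genes when degradation is blocked, was at 87.8 and 74.8 CPM and then 203.5 and 184.5 CPM without passing (edgeR adjusted p = 0.0734).

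Of 8 peptide loading genes, 1 rose and 0 fell. B2M, the light chain of MHC class I, was at 535.1 and 436.2 CPM untreated, and at 2478 and 3116 CPM with PMA (2.53, SE 0.31, edgeR adjusted p = 0.0257). TAP1, the peptide transporter subunit encoded beside PSMB9, was at 3.77 and 3.04 CPM and then 11.9 and 21.2 CPM (2.28, SE 0.55, edgeR adjusted p = 0.0738). IRF1, NLRC5, NFE2L1 and TAP1 fall outside the rule for named genes and were chosen after their values were seen. Whether the difference between these genes and the inducible subunits exceeds error was not tested.

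**Figure D5:**
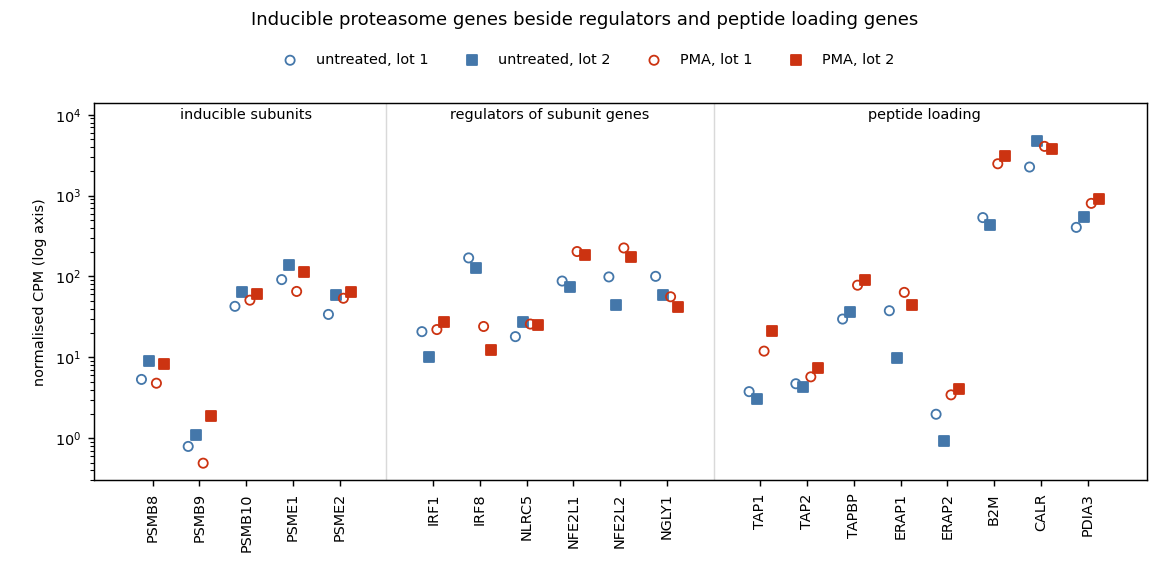
Normalised CPM on a log axis in each library for the inducible proteasome genes, regulators of proteasome genes and peptide loading genes. B2M lies well above its untreated libraries and IRF8 below, while the groups overlap for all 5 inducible proteasome genes.

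The regulatory particle had 0 calls among 17 genes and a median log2 fold change of −0.08, 0.14 in lot 1 and −0.15 in lot 2. Of its ATPases, PSMC3 had the smallest p, at 75.4 and 153.4 CPM untreated, and 82.3 and 71.4 CPM with PMA (−0.57, SE 0.44, edgeR adjusted p = 0.478). PSMC5 was at 47.6 and 116.3 CPM and then 52.4 and 59.5 CPM. PSMC1 was at 79.4 and 116.6 CPM and then 82.6 and 77.7 CPM, and its pseudogene PSMC1P1 held between 11% and 18.7% as many counts, so reads may be shared. In these 3 genes the untreated library of lot 2 was again the highest.

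Among the non-ATPases, PSMD13, a lid subunit, was at 89.9 and 160.5 CPM untreated, and at 85.0 and 90.7 CPM with PMA (−0.51, SE 0.39, edgeR adjusted p = 0.479). PSMD1, a scaffold of the base, was at 45.6 and 86.2 CPM and then 54.4 and 27.4 CPM, with the lots in opposite directions. PSMD14, the deubiquitinase of the lid, was at 95.2 and 63.1 CPM and then 67.9 and 62.8 CPM. The summed regulatory particle counts were 92.9% and 83.2% of the constitutive core counts without PMA and 94.3% and 101% with PMA.

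The chaperones of the regulatory particle did not move together. PSMD5 was at 43.7 and 41.6 CPM untreated, and at 90.2 and 83.9 CPM with PMA. Libraries of a group lay close together and the groups did not overlap. Its log2 fold change of 1.03 (SE 0.32) did not pass (edgeR adjusted p = 0.114, DESeq2 0.0173). Against the regulatory particle counts it came to 2.72% and 1.92%, and then to 4.99% and 4.83%, a ratio also chosen after the values were seen. PSMD9 was at 31.3 and 63.9 CPM and then 37.6 and 33.98 CPM, and PSMD10, also known as gankyrin, at 42.5 and 30.2 CPM and then 33.5 and 36.5 CPM. Both overlapped between groups.

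The remaining members cap or restrain the core. PSME3, a nuclear activator, was at 102.4 and 254.4 CPM untreated, and at 154.1 and 149.0 CPM with PMA. PSME4, a large activator linked to histone turnover, was at 127.5 and 77.3 CPM and then 133.1 and 94.3 CPM. Both overlapped between groups. PSMF1, which can inhibit the core in vitro, was at 326.9 and 471.4 CPM and then 262.8 and 322.8 CPM, separated by a gap of a few CPM (−0.45, SE 0.33, edgeR adjusted p = 0.466).

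Per length, members spanned a wide range of levels. PSMB4 was highest, at 324.8 CPM per kb without PMA and 287.2 with PMA. The class medians without and with PMA were 133.3 and 105.6 CPM per kb for the constitutive beta ring, 51.9 and 44.1 for the regulatory particle, and 33.3 and 42.0 for the immunoproteasome genes. PSMB8 was at 6.36 and 5.81 CPM per kb. PSMB9, at 1.202 and 1.503, was the lowest of the members tested in both groups, and PSMG4 was next to it under PMA, at 1.70.

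Other genes of the pathway gave no calls outside the regulators and peptide loading genes. Of 11 proteasome-associated genes, 0 rose and 0 fell, and those with the smallest p were the ubiquitin-binding ZFAND5, at 110.5 and 53.8 CPM and then 312.6 and 310.1 CPM (1.92, SE 0.44, edgeR adjusted p = 0.0677), and PAAF1, a regulatory particle assembly factor (−1.18, edgeR adjusted p = 0.173). Of 9 genes of ubiquitin shuttles and the p97 unfoldase, 0 were called, with NPLOC4 at 0.81 and VCP at 0.68 on the log2 scale (edgeR adjusted p = 0.214 and 0.225). Of 6 ubiquitin and E1 genes, 0 were called. RPS27A, a fusion of ubiquitin and a ribosomal protein, was at 565.3 and 744.4 CPM untreated, and at 309.3 and 160.4 CPM with PMA (−1.48, SE 0.43, edgeR adjusted p = 0.102).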

How the data were processed

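RNA was measured in 4 libraries, 2 per group. Sequencing of poly(A) RNA used the Ion Proton, per the labels' protocols. HISAT2 2.1.0 and StringTie 2.1.1 appear, without roles, in the submitters' processing notes. The genome build, annotation, counting program and strand setting are named in none of the sources used here. Overlapping, antisense and near-identical genes are therefore uncertain. The deposited main table holds estimated counts per gene, already whole, not scaled between libraries. A second table deposited by the authors holds a signal (the count times 1 factor per library), log2 ratios and log2 mean levels, and p-values and q-values from a test no source here names.

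Counts were tested with edgeR 4.0.16 in R 4.3.3 (TMM, filterByExpr by group, quasi-likelihood test, Benjamini-Hochberg adjustment over 16451 genes), on all 4 libraries with no block. The procedure was tested on simulated counts with a smaller common spread than these data and larger changes than most members. That run does not show how often changes of the members' size would be found. SEs were derived from each fold change and the F value of its test. The members and lists were chosen with earlier results of these data known. Values per library are given by rule for PSMB5 to PSMB10, the PSME genes, PSMF1, members past the threshold and the 3 members with the smallest p of each other class, and, in the added lists, for genes past the threshold or else the 2 with the smallest p. The results of some genes the rule names are not reported here. Pseudogene, antisense and other entries with similar names (39) were left out. Lot numbers come from the titles and pair the libraries. Deviations of same-lot libraries correlated at 0.154 across genes. Alternatives included DESeq2 1.42.0 and limma-voom (limma 3.58.1), other scaling and filters, the lot as a block and leaving out each library. The depth limits low genes: 3 counts correspond to 0.0475 to 0.0921 CPM, for counting error only. Transcript lengths, which enter only values per length, came from GENCODE release 29. The longest coding transcript was used first. It was replaced by the lower median of the principal transcripts after its values were seen, since for 4 members it was over 1.5 times longer, and both versions are kept.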

Additional observations from a re-analysis of the deposited data

How the results depend on the processing

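Each alternative changed 1 choice, except that DESeq2 also brought its own size factors and filtering and limma-voom its own model of the spread. Of 597 member fold changes under the alternatives, 549 kept the direction of the reported value. In 30 of 46 members the direction changed under at least 1 alternative, and 4 members were called under at least 1. Members higher with PMA numbered 0, and 1 with DESeq2. Members lower with PMA numbered 1. Among alternatives that kept all 4 libraries, this count was 2 with DESeq2, 0 with the lot as a replicate block and 0 at an adjusted p under 0.01. The call of PSMG1 was lost when either PMA library was left out. Leaving out PMA replicate 1 gave log2 fold changes of −2.30 for PSMG1 and −11.98 for PSMG4. PSMG4 was listed at 0 in the PMA library that remained. All genes lower with PMA numbered 332. This count was 721 with the 5 CPM filter, 1698 with DESeq2, 636 with limma-voom, 217 against a fold of 1.5, 0 at an adjusted p under 0.01, and 79 (without PMA replicate 2) to 1085 (without untreated replicate 1) leaving out a library. All genes higher with PMA numbered 705. This count was 2136 with DESeq2, 1149 with limma-voom, 0 at an adjusted p under 0.01, and 424 to 1830 leaving out a library. The cause of these shifts was not tested.

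With 1 library left out, the members' median log2 fold change ranged from −0.49 to 0.029, that of the constitutive core between −0.70 and 0.049, the core alpha ring between −0.74 and −0.17 and the constitutive core beta ring between −0.68 and 0.15. It moved the immunoproteasome between −0.56 and 0.37, the regulatory particle ATPases between −0.47 and 0.020, the non-ATPases between −0.22 and 0.11, the regulatory particle chaperones between −0.10 and 0.19, the core assembly chaperones between −2.12 and −1.60 and the other activators and inhibitor between −0.75 and −0.16. The core alpha ring was at −0.67 with upper-quartile factors. The regulatory particle chaperones were at −0.21 with upper-quartile factors, −0.10 with the 5 CPM filter and −0.12 with library sizes that leave out abundant and mitochondrial genes. Leaving out a library moved the log2 ratio difference between −0.49 and 0.44 for PSMB8 to PSMB5, −0.77 and 1.25 for PSMB9 to PSMB6 and −0.048 and 0.36 for PSMB10 to PSMB7, so the direction of each turned. The transcript length was redefined after values were seen, and the longest coding transcript lowered the PSMB8 share as the report gives, and changed the PSMB9 and PSMB10 shares by less than the spread between libraries.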
